A study of Arabidopsis thaliana with 4 samples.

Results

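GSTU20, GSTU22 and GSTU25 are Arabidopsis thaliana genes for glutathione transferases of the tau class. They were picked by gene symbol, 3 of the 13350 genes that had a probe set of their own on the array, because their signals were higher in the sfr6 mutant than in wild type on these same arrays. The genotype difference is therefore a description of the choice and carries no test here, while the response to darkness was not used in it.

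The study used 4 Affymetrix ATH1 arrays, 1 array for each group, with biotin-labelled material from total RNA. The groups were sfr6 after darkness, sfr6 in light, wild type after darkness and wild type in light. Wild type was Col-0, and sfr6 was a mutant line obtained with the chemical mutagen EMS in that background, so both genotypes share it. Plants grew for 7 days, then spent 24 h in a cabinet at 240 microEinsteins with 16 h of light and 8 h of dark a day, and were finally wrapped in foil or left uncovered for 3 h. The labels call the tissue cell culture, whereas their treatment text speaks of plants on agar plates. PYK10, a root marker, read 1823 in sfr6 and 2081 in wild type in the dark, and 2562 in sfr6 and 3004 in wild type in the light, so it was lower on both dark arrays and lower in sfr6 in both conditions. CHLM, a chlorophyll synthesis gene, read between 1186 and 1353 on the 4 arrays. A change of cell make-up and a change of RNA level per cell cannot be told apart in such bulk samples.

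Glutathione transferases join the tripeptide glutathione to reactive, electron-poor molecules, and vacuolar pumps of the ABCC type then remove the conjugates from the cytosol. The tau class is found in plants, where it is best known for making herbicides harmless and for its induction by xenobiotics, oxylipins and oxidative stress. GSTU20 binds JAR1, the enzyme that joins jasmonate to isoleucine, and has been tied to far-red light signalling. GSTU25, with its close relative GSTU24, can detoxify the explosive TNT. The SFR6 protein is MED16, which belongs to Mediator, the large complex between transcription factors and RNA polymerase II, and the mutant was first known for its sensitivity to freezing.

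The deposited signals are MAS5 intensities on a linear scale with a trimmed mean of 100.01 on each array. Between 58.2% and 61.6% of probe sets were over the floor of 22.1, the 40th percentile of all signals, which was used as the lowest signal when log2 was taken. In the dark the control probe set of 25S ribosomal RNA had 1321 in sfr6 and 364 in wild type, and in the light 120 in sfr6 and 122 in wild type. GAPDH control probe sets had a 3′ over 5′ signal ratio of 1.10 in sfr6 and 1.35 in wild type in the dark, and 1.09 in sfr6 and 1.13 in wild type in the light; GSTU20, GSTU22 and GSTU25 were all lowest on that wild-type dark array. The part of PYK10, ribosomal RNA and this ratio in the results was not tested. With 1 array in each group there is no spread between replicates, and precision is limited by how few arrays there are. GSTU20, GSTU22 and GSTU25 were over the floor on all 4 arrays, so at this floor every fold change of theirs is measured and not a bound.

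GSTU20 read 140 in sfr6 in the dark and 663 in sfr6 in light, against 69.3 in wild type in the dark and 406 in wild type in light. Both light arrays were high and both dark arrays low, and within each light condition sfr6 was the higher. GSTU22 read 111 in sfr6 in the dark and 210 in sfr6 in light, against 31.5 in wild type in the dark and 89.1 in wild type in light. Here both sfr6 signals exceeded both wild-type signals, so sfr6 after darkness was still 1.24-fold above wild type kept in light. GSTU25 read 64.4 in sfr6 in the dark and 167 in sfr6 in light, against 23.3 in wild type in the dark and 78.0 in wild type in light. Its wild-type dark signal was barely over the floor.

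The order of the 4 groups thus had the same ends in all 3 genes, with sfr6 in light the highest and wild type in the dark the lowest. The span between those ends was 9.56-fold for GSTU20, 6.66-fold for GSTU22 and 7.19-fold for GSTU25. In the middle, wild type in light was above sfr6 in the dark for GSTU20, by 2.91-fold, and for GSTU25, by 1.21-fold, and below it for GSTU22, by 1.24-fold. Without replicates it cannot be said which neighbours in the order differ beyond their spread. Signals of different probe sets are not comparable, so no order among the genes is given.

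**Figure D1:**
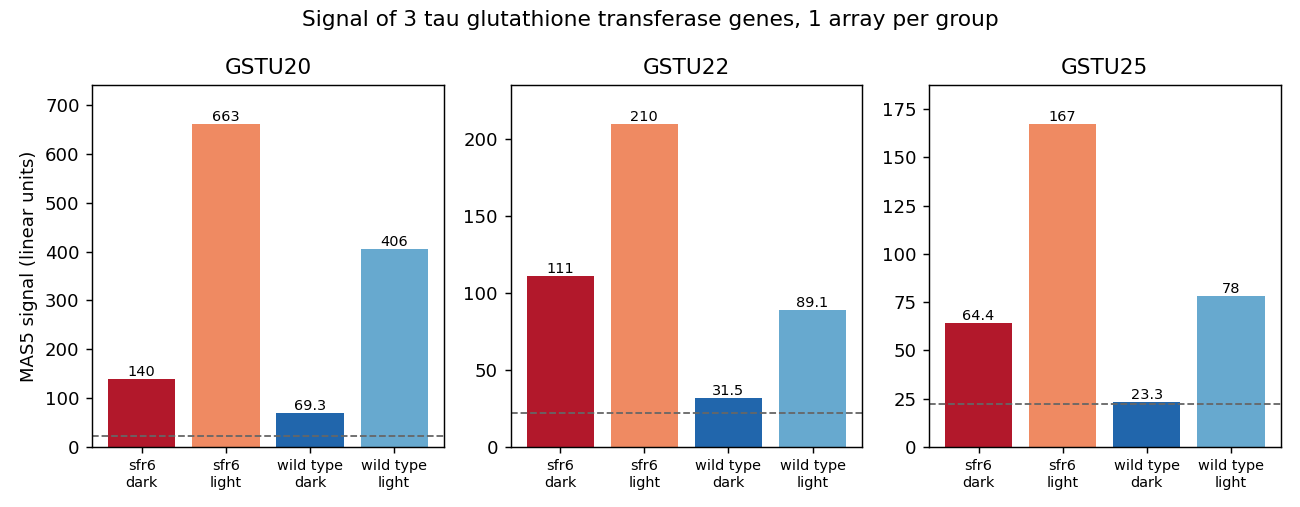
MAS5 signal (linear units, axes from 0) of GSTU20, GSTU22 and GSTU25 on each of the 4 arrays, 1 bar per array and no error bar because each group has 1 array; the dashed line is the floor of 22.1. In each panel sfr6 in light is the tallest bar and wild type in the dark the shortest, at 23.3 for GSTU25.

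All 3 genes were higher in sfr6 than in wild type in the dark and in the light, as their choice implies. In the dark GSTU22 was 3.52-fold higher, GSTU25 2.76-fold and GSTU20 2.02-fold. In the light GSTU22 was 2.35-fold higher, GSTU25 2.15-fold and GSTU20 1.63-fold. At least 2-fold higher in the dark were therefore 3 of 3, where 0.775% of all probe sets were, and in the light 2 of 3, where 1.01% were. The rule used this contrast, so nothing is read from these shares. The differences in the dark depend on the floor. With the floor at the 60th percentile they moved from 1.47 to 0.15 log2 units for GSTU25 and from 1.81 to 0.93 for GSTU22. Averaged over darkness and light, the log2 effect of genotype was 1.52 ± 0.20 (SE from the fit over 4 arrays) for GSTU22, 1.28 ± 0.19 for GSTU25 and 0.86 ± 0.13 for GSTU20. The 18 spike-in control probe sets read lower in sfr6, by a median log2 difference of -0.12 in the dark and -0.19 in the light, so on a scale centred on them the genotype differences of all 3 genes are larger.

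All 3 transcripts fell in the dark, in both genotypes, and this comparison was not used to pick them. By limma with Benjamini-Hochberg adjustment over all probe sets, GSTU20 fell by 2.40 ± 0.13 log2 units on average (SE, adjusted p = 0.00027). The average fall of GSTU25 gave an effect of -1.56 ± 0.19 (SE, adjusted p = 0.0022). GSTU22 had the smallest effect of the 3, at -1.21 ± 0.20 (SE, adjusted p = 0.0062). The count of 3 of 3 that fell stands beside a background in which 17.8% of all probe sets fell and 15.4% rose. Among 15121 probe sets, 0.443% had a lower average dark effect than GSTU20, 1.96% a lower one than GSTU25 and 3.88% a lower one than GSTU22. The test has 1 residual degree of freedom, and the same residual sets the errors of the genotype and dark effects, so genes picked for genotype tend to have small errors here too. With the floor at the 60th percentile the effects were -0.90 for GSTU25 and -0.77 for GSTU22 (limma adjusted p = 0.049 and 0.021).

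In sfr6, GSTU20 was 4.74-fold lower in the dark, GSTU25 2.60-fold and GSTU22 1.89-fold. In wild type, GSTU20 was 5.86-fold lower in the dark, GSTU25 3.35-fold and GSTU22 2.83-fold. At least 2-fold lower were 2 of 3 in sfr6, where 6.87% of probe sets were, and 3 of 3 in wild type, where 7.19% were. With the floor at the 60th percentile the wild-type response moved from -1.74 to -0.42 log2 units for GSTU25 and from -1.50 to -0.62 for GSTU22. GSTU20 kept 21.1% of its light signal in sfr6 and 17.1% in wild type. GSTU22 kept 52.8% in sfr6 and 35.3% in wild type, and GSTU25 kept 38.5% in sfr6 and 29.9% in wild type.

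Each gene kept a larger share of its light signal in sfr6, but the difference is small. It was not tested, since it has no residual degree of freedom. The difference is itself the residual of the fit, so genes picked for genotype tend to have a small one. The dark response in sfr6 minus that in wild type was 0.31 on the log2 scale for GSTU20, 0.58 for GSTU22 and 0.36 for GSTU25. None of the 3 reached 2-fold, as 2.56% of all probe sets did in either direction. A response difference above 0 was found for 53.0% of all probe sets, and 20.2%, 6.71% and 16.0% of them had a higher one than these genes in that order. With the floor at the 60th percentile the difference turned to -0.30 for GSTU22 and -0.95 for GSTU25, because their wild-type dark signals then lay under the floor. With no floor and log2 of the signal plus 16 it was 0.31 for GSTU22 and 0.068 for GSTU25. In signal units the loss went the other way. GSTU20 lost 523 units in sfr6 and 337 in wild type, GSTU22 lost 99.0 in sfr6 and 57.6 in wild type, and GSTU25 lost 103 in sfr6 and 54.7 in wild type. Which genotype responded more therefore depends on whether the response is taken as a ratio or as a difference of signals. Genes chosen for higher signals in sfr6 have more signal to lose there, so nothing is read from the larger loss in units.

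**Figure D2:**
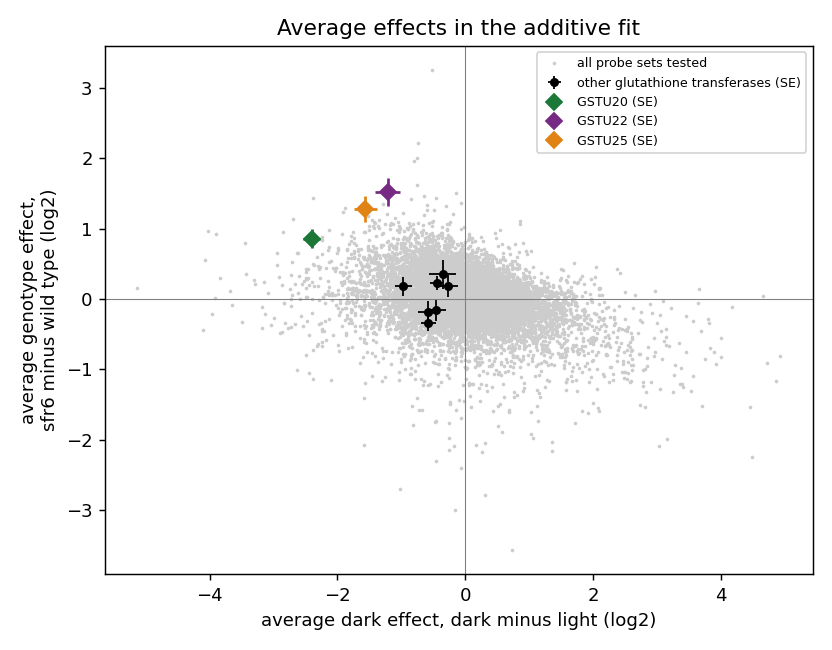
Average genotype effect (sfr6 minus wild type, log2, vertical) against average dark effect (dark minus light, log2, horizontal) for 15121 probe sets in grey, with the other measured glutathione transferase genes in black and the 3 genes as diamonds; bars are SEs from the fit. The 3 genes lie at upper left, from -2.40 to -1.21 on the dark axis and from 0.86 to 1.52 on the genotype axis. They stand apart from the black points on the genotype axis, by which they were chosen.

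The rest of the family was read to see what is shared. Another 11 glutathione transferase genes had a probe set annotated to 1 named gene, and 7 of these passed the floor on 1 array or more. Of the 28 tau genes in the RefSeq table, 11 had a probe set of a single named gene, the 3 included. ATGSTF13, GSTF4, GSTU15 and GSTU21 were under the floor everywhere. Of the 7 genes, 4 fell in the dark and 0 rose, where 17.8% of all probe sets fell and 15.4% rose. With each array centred on its median 2 of the 7 fell. GSTU27 fell most, with a log2 effect of -0.97 ± 0.14 (SE, limma adjusted p = 0.0042). GSTU18, GSTU16 and GSTL3, a gene of the lambda class, fell with log2 effects of -0.59, -0.58 and -0.45. GSTU26, GSTU28 and GSTU23 did not pass, at -0.27, -0.45 and -0.36. The median dark effect was -0.45 over the 7 genes and -0.05 over all probe sets tested.

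For genotype, 0 of the 7 other genes passed in limma, where 0.417% of all probe sets passed as higher in sfr6 and 0.860% as lower, and 1 had an unadjusted p under 0.05, as 19.8% of all probe sets had. Their average log2 effects ran from -0.33 to 0.36, with a median of 0.18, beside 0.03 over all probe sets. On floored signals 0 were at least 2-fold different between the genotypes; GSTU23 came nearest, at least 1.64-fold higher in sfr6 in the light. GSTU16, with 177 in sfr6 and 219 in wild type in the dark and 260 in sfr6 and 334 in wild type in the light, was lowest among them. GSTL3 read 657 in sfr6 and 567 in wild type in the dark, and 908 in sfr6 and 763 in wild type in the light. These genes are those that remain once the 3 had been chosen for their difference, so their contrast with the 3 was not tested.

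**Figure D3:**
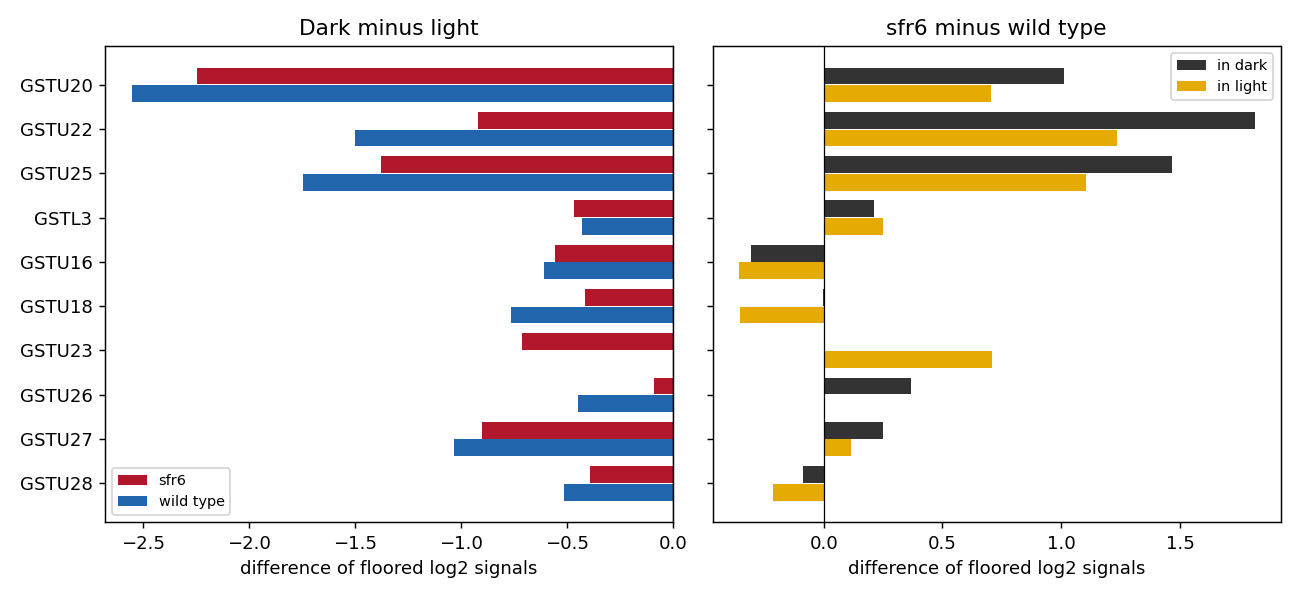
Difference of floored log2 signals for the 10 measured glutathione transferase genes, dark minus light in sfr6 (red) and wild type (blue) on the left, and sfr6 minus wild type in the dark (black) and in the light (yellow) on the right; each bar compares 2 arrays and has no error. GSTU20, GSTU22 and GSTU25 reach between 0.71 and 1.81 on the right, where GSTU23 in the light reaches a bound of 0.71 and the others stay within 0.37 of 0. A missing bar of GSTU23 means that both signals were under the floor.

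All 3 genes lie on chromosome 1 in 2 tandem groups of tau genes, by the gene order of the RefSeq table for TAIR10.1. GSTU20 and GSTU22 belong to a run of 5, GSTU19 to GSTU23, with GSTU21 as the single protein-coding gene between them. GSTU25 sits between GSTU24 and GSTU26 in a run of 3 elsewhere on the chromosome. GSTU21 was under the floor on all arrays, at 1.0 in sfr6 and 0.88 in wild type in the dark and 1.6 in sfr6 and 8.9 in wild type in the light. GSTU23, on the other side of GSTU22, passed the floor on 1 array, with 36.2 in sfr6 against 17.2 in wild type in the light. In the dark it read 15.2 in sfr6 and 14.8 in wild type. GSTU26 read 129 in sfr6 and 100.4 in wild type in the dark, and 138 in sfr6 and 137 in wild type in the light. GSTU19 and GSTU24 are not analysed here, and whether their transcripts add to the signal of a neighbour's probe set was not tested.

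Of the listed partners in detoxification, 6 genes were measured. In the dark 4 fell and 0 rose, beside the 17.8% and 15.4% of all probe sets. The list was drawn up with earlier results of these data known, so nothing is read from its counts. UGT73C1, a glycosyltransferase, fell most, with a log2 effect of -2.22 ± 0.17 (SE, limma adjusted p = 0.00062). AER, a reductase of reactive alkenals, UGT73B5 and AOR, a chloroplast alkenal reductase, fell with log2 effects of -1.26, -0.76 and -0.66. UGT73B4 and UGT73B1 did not pass, at -0.59 and 0.27. For genotype 1 of the 6 passed as higher in sfr6, UGT73B4, a glycosyltransferase of phenolic compounds, where 0.417% of all probe sets did. It read 44.8 in sfr6 and 17.6 in wild type in the dark, and 80.6 in sfr6 and 28.0 in wild type in the light. Its average genotype effect was 1.27 ± 0.20 on floored log2 signals (SE, limma adjusted p = 0.0499), with the wild-type dark signal set to the floor. It passed in 3 of the 7 alternatives in which it was tested, with adjusted p from 0.0059 to 0.43. UGT73B5, its neighbour in name, was 1.41-fold higher in the dark and 2.20-fold higher in the light, with an adjusted p of 0.11. UGT73C1 and AER, which also fell in the dark, had genotype effects of 0.03 each.

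Of the list for glutathione synthesis and recycling, which also holds a monodehydroascorbate reductase, 3 genes were measured. In the dark 2 of them fell, beside 17.8% of all probe sets. Earlier results were known when this list was made too, so its counts are a description. ATMDAR2, a monodehydroascorbate reductase, and GR1, the cytosolic glutathione reductase, fell with log2 effects of -1.11 and -0.61. GR, the reductase of the organelles, did not pass, at -0.05. For genotype 0 of these 3 passed and 1, GR1, had an unadjusted p under 0.05, as 19.8% of all probe sets had. GR1 read 469 in sfr6 and 350 in wild type in the dark and 666 in sfr6 and 576 in wild type in the light. The listed ABCC pumps are not analysed here.

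Among 6403 other named genes over the floor on all 4 arrays, the closest profiles were found by the distance between log2 signals centred on each gene's mean, over 4 arrays. Nearest to GSTU25 was AT5G01870, at a distance of 0.16, which read 335 in sfr6 and 129 in wild type in the dark and 935 in sfr6 and 379 in wild type in the light. AT1G74460 and DRT100 followed, at 0.30 and 0.33. Nearest to GSTU20 were AT5G20700, OCT5, an organic cation and carnitine transporter gene, and AT1G55210, at 0.26, 0.33 and 0.45. Nearest to GSTU22 were AT2G43590 and AT1G74460, at 0.42 and 0.43, with GSTU25 itself next at 0.44. Among the 6403, GSTU25 stood 39th from GSTU20, at a distance of 0.94, and GSTU22 139th, at 1.37. So GSTU22 and GSTU25, which lie in different tandem runs, were closer in profile than GSTU20 and GSTU22, which share one. A distance over 4 arrays without replicates describes these arrays alone.

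**Figure D4:**
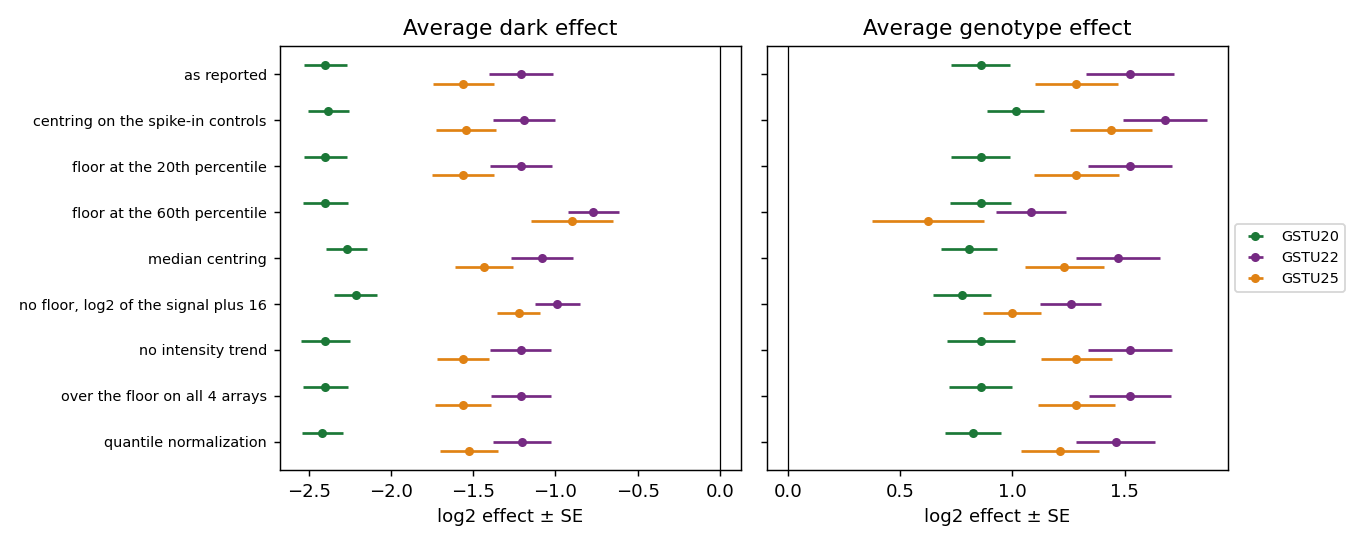
Average dark effect (left) and average genotype effect (right) of the 3 genes, as log2 effect ± SE from the fit over 4 arrays, under the setting of the report in the top row and 8 alternatives below it. Every dark effect is below 0. Every genotype effect is above 0, but the genes were chosen by that contrast. The floor at the 60th percentile brings GSTU22 and GSTU25 nearest to 0 on the left, at -0.77 and -0.90. On the right it brings GSTU25 nearest to 0, at 0.63.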

How the data were processed

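Total RNA of 4 samples was used for 1 ATH1 array each. The deposited values are intensity values on a linear scale made with MAS5, per the submitters' processing notes, which name no version; detection calls were not used here. Of 22810 probe sets, 64 controls were left out of all comparisons. Gene names come from GEO's platform annotation and RefSeq symbols (TAIR10.1, used for names and gene order alone), with 1 named gene for 13513 probe sets. Signals under the 40th percentile of all signals (22.1) were set to it before log2 was taken, and 15121 probe sets at or over it on at least 1 array were tested. The search for like profiles used each gene's brightest probe set.

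The average dark and genotype effects came from an additive model in limma 3.58.1 under R 4.3.3 (lmFit, eBayes with an intensity trend, 1 residual and 5.15 prior degrees of freedom, Benjamini-Hochberg adjusted p under 0.05). The fit was also run on simulated data with changes by darkness alone. Those data followed the fit's own variances and had no floor, so they cannot check the floored signals or the genotype effects. Differences between 2 arrays carry no test. Alternatives were floors at the 20th and 60th percentiles, no floor with log2 of the signal plus 16, median centring, quantile normalization, centring on 18 spike-in controls, the floor required on all 4 arrays, and no intensity trend. The genes named are the 3 members and every other glutathione transferase gene with a probe set annotated to 1 named gene. Also named are the measured genes of the glutathione and detoxification lists and the 3 nearest profiles of each member. Members and lists were chosen with earlier results of these data known.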

Additional observations from a re-analysis of the deposited data

Results flagged for a closer look

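In 4 genes of the lists, a contrast ran in opposite directions in the 2 groups; each difference rests on 2 arrays and was not tested. On the log2 scale sfr6 minus wild type was -0.0074 in the dark and 0.067 in the light for AER, -0.15 and 0.17 for UGT73B1, and 0.12 and -0.066 for UGT73C1, in that order. GR had a dark response of 0.071 in sfr6 and -0.18 in wild type. None of GSTU20, GSTU22 and GSTU25 showed such a reversal. For the genotype contrast this follows from how they were chosen, so nothing is read from it.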

How the results depend on the processing

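The dark effect of the 3 genes kept its direction and an adjusted p under 0.05 in limma under all 8 alternatives: from -2.42 to -2.22 for GSTU20, from -1.21 to -0.77 for GSTU22 and from -1.56 to -0.90 for GSTU25, with adjusted p up to 0.0021, 0.021 and 0.049. Genotype effects, by which the genes were chosen, stayed above 0. With the floor at the 60th percentile (58.1) that of GSTU22 was 1.08 and that of GSTU25 0.63. Without a floor that of GSTU25 was 1.00. The response difference reversed under the 60th percentile, to -0.30 for GSTU22 and -0.95 for GSTU25, and without a floor it was 0.31 and 0.068 in that order. Over all probe sets, 63 were higher and 130 lower in sfr6. These counts were 251 and 344 with the floor at the 20th percentile, 0 and 3 at the 60th, 591 and 596 without a floor, 9 and 80 with median centring, 21 and 83 with quantile normalization, 803 and 213 on spike-in controls, 278 and 340 with the floor required on all 4 arrays, and 0 and 2 without the intensity trend. The cause was not tested. At the 60th percentile 1727 probe sets fell in the dark. With median centring 2 of the other glutathione transferase genes fell, and with the floor at the 20th percentile 1, GSTU23 in light, was at least 2-fold different in sfr6. No paired analysis was possible because each group has 1 array and the groups share a single replicate number.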
